A study of Mus musculus with 6 samples.

Results

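The genes described here are 47 components of the transforming growth factor beta (TGF-beta) and bone morphogenetic protein (BMP) signaling pathways, chosen by name as ligands, receptors, Smads, inhibitors and Id targets. The choice was made with earlier results of these data known. Of these, 46 had a transcript cluster (the unit in which the array reports a gene) that carried their symbol alone, out of 19938 such genes on the array, and Gdf15 was not analysed here. Their RNA was measured in MLE-15 cells, an immortalized mouse lung epithelial line from a tumor in which the human SP-C promoter drove a viral large T antigen. The 3 Nkx2-1-shRNA samples came from cells transduced with lentivirus carrying a mixture of 3 pLKO.1 shRNA clones against Nkx2-1, and the 3 control samples from cells given the pLKO.1 vector without an insert. The sample titles name the control an empty vector, whereas the study's text calls it a non-silencing control. Both groups went through puromycin selection and carry 48 h in their labels, whereas the study's methods describe lines that had been transduced independently and kept stably, so that n = 3 counts lines of 1 parental cell line. Whether a given effect came from 1 of the 3 shRNAs cannot be told apart in a mixture. Expression is given on the log2 scale of RMA, on which an increase of 1 is a 2-fold rise, and differences are Nkx2-1-shRNA minus control.

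TGF-beta, activin and BMP ligands bind pairs of type I and type II serine/threonine kinase receptors, which phosphorylate receptor-activated Smads. Smad2 and Smad3 carry the TGF-beta and activin signal, Smad1, Smad5 and Smad9 the BMP signal, and both sets enter the nucleus with Smad4. TGF-beta is secreted bound to latent TGF-beta binding proteins in the matrix and has to be released before it can signal. In the lung, BMP4 and TGF-beta take part in branching and in the differentiation of the epithelium, and TGF-beta is known for growth arrest and for epithelial-to-mesenchymal transition.

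The targeted gene, Nkx2-1, a homeodomain transcription factor of lung and thyroid epithelium, was at 8.61, 8.61 and 8.59 in control replicates 1, 2 and 3 and at 7.91, 7.98 and 7.83 in Nkx2-1-shRNA replicates 1, 2 and 3. The groups did not overlap and the knock-down left 61.8% of the control signal (log2 fold change -0.69, SE 0.076, limma adjusted p = 0.00155, exact two-sided permutation p = 0.1, the smallest that 3 against 3 arrays can give). In a bulk sample, fewer cells with a transcript and less of it per cell cannot be told apart. Epithelial markers were present in both groups (5 of 6 above background, Cldn7 being under it), and their mean level was 9.538 to 9.598 in the control arrays and 9.872 to 9.962 in the Nkx2-1-shRNA arrays. Krt19 and Krt18 were higher by 1.19 and 0.44 on the log2 scale, while Cdh1, Epcam and Krt8 did not pass (-0.03, 0.34 and 0.12). The mean level of 6 lung epithelial markers, which include Nkx2-1, was 7.579 to 7.82 and 6.918 to 6.991. Without Nkx2-1 and Sftpc (surfactant protein C) it was 7.412 to 7.57 and 7.419 to 7.456. Sftpc was at least 10.4-fold lower in Nkx2-1-shRNA cells, where all 3 arrays lay under the background limit (log2 4.346, the 95th percentile of sensory receptor genes), so that the fold was taken against that limit. Sftpa1 and Foxa2 were lower (-0.41 and -0.44), Sftpd was called higher (0.44, adjusted p = 0.0349) and Sftpb did not pass (0.14). None of 7 fibroblast markers was called by limma, at an unadjusted p under 0.05 or by the methods' t-test (mean level 4.695 to 4.782 against 4.746 to 4.831, with 5 above background in each group). The endothelial receptor gene Tek was at least 2.68-fold lower, from 5.77 to a level under the limit, while Pecam1, Cdh5, Kdr and Emcn lay under it in both groups, and of 4 leukocyte markers 2 lay above it and Ptprc under it. The mean level was 3.891 to 4.046 against 3.493 to 3.702 for the 5 endothelial markers and 4.521 to 4.78 against 4.423 to 4.554 for the leukocyte markers. The part of these shifts in the results below was not tested.

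Across the pathway, 23 of the 46 measured genes were higher in Nkx2-1-shRNA cells at a limma adjusted p under 0.05, 4 were lower and 19 did not pass. Over all 35557 transcript clusters, 7.61% were called higher and 9.24% lower. Among the 13568 genes with 1 symbol whose mean exceeded background in at least 1 group, 15.3% were higher and 13.9% lower. Of the 46, 45 exceeded that limit. The median log2 fold change was 0.312 over the pathway genes and -0.004 over the genes above background. The control and Nkx2-1-shRNA arrays did not overlap for 32 of the 46 genes, 25 higher and 7 lower, where 34.9% of all transcript clusters and 52.5% of the genes above background did not overlap. By class, 8 of 14 ligands and binding proteins were higher and 2 lower, 5 of 11 receptors were higher, 3 of 8 Smads were higher, 4 of 9 inhibitors were higher and 1 lower, and 3 of 4 Id genes were higher and 1 lower. No receptor and no Smad was called lower by limma, with 1 lower in each class at an unadjusted p under 0.05 and none by the methods' t-test after adjustment. At the study's own threshold (adjusted p under 0.0005 and a log2 fold change beyond 0.6) limma called 4 genes, Pmepa1, Ltbp1, Inhba and Tgif1, all higher. At that threshold, limma called 250 of the 13568 genes above background higher and 124 lower. Over all 35557 transcript clusters it called 286 higher and 162 lower, fewer in all than the genes the study selected at this cutoff.

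**Figure D1:**
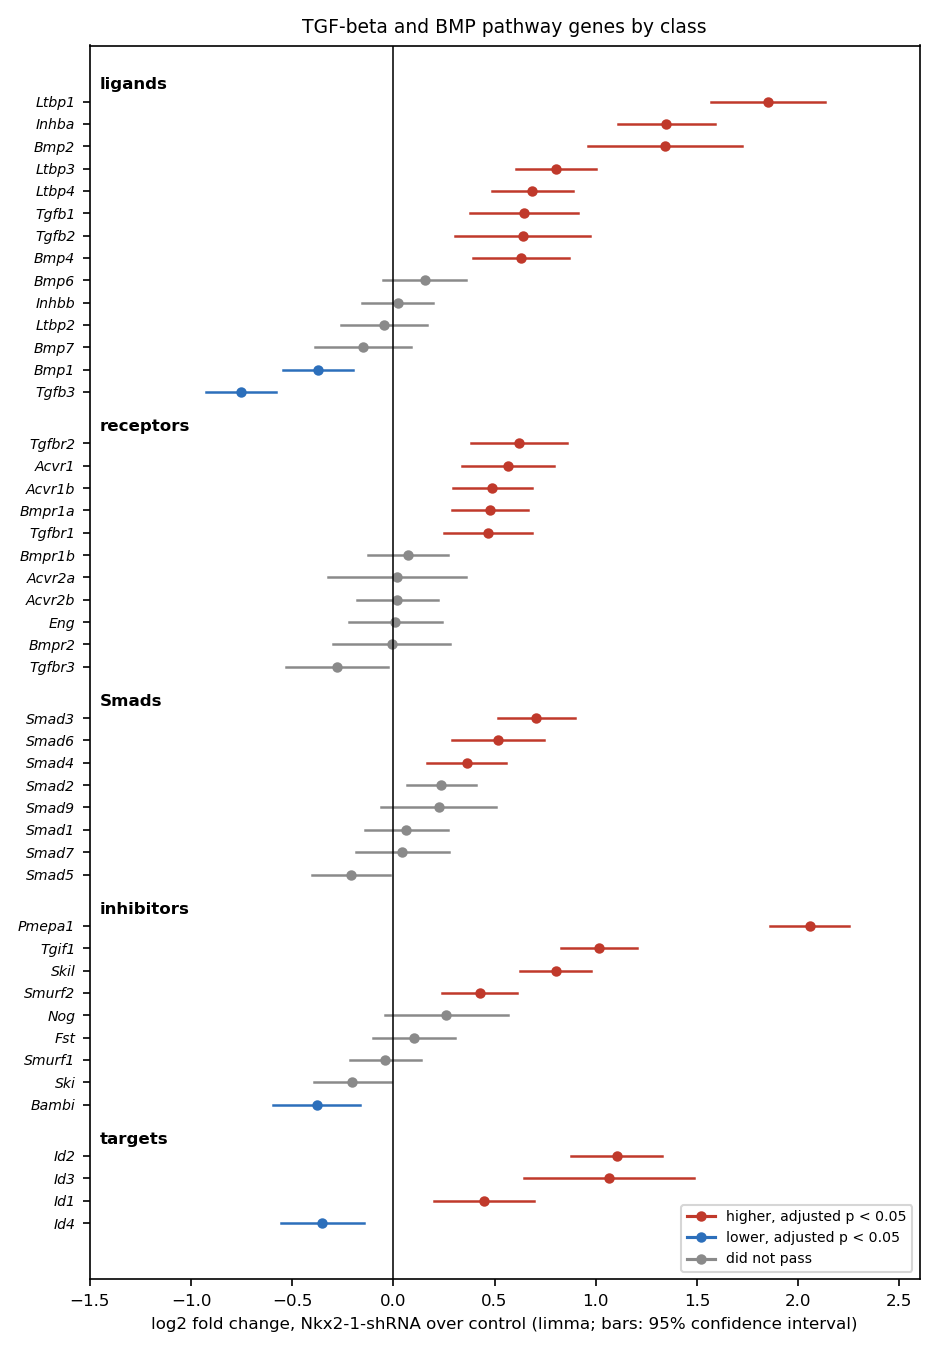
Log2 fold change of each of the 46 genes, Nkx2-1-shRNA over control, by class, on the horizontal axis; points are limma estimates from 3 arrays a group, lines their 95% confidence intervals, and the colour gives the call. The genes called higher run from Smad4 (0.36) to Pmepa1 (2.06), and the 4 called lower are Tgfb3, Bambi, Bmp1 and Id4.

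Promoter windows of 300 bases, from 250 before to 50 after the annotated start, were in the RefSeq table (GRCm38.p6) for 32 of the measured genes (44 windows). They were searched on both strands for CAGAC, the Smad-binding element (GTCTG on the other strand), for GGCGCC, a GC-rich Smad element that reads alike on both strands, and for CAAGTG, an Nkx2-1-type site (CACTTG on the other strand). CAGAC was in a window of 8 of the 18 genes called higher that had one and of 8 of the 13 that did not pass, beside 53.2% of all 27025 genes in the table. GGCGCC was in 6 of 18 and 4 of 13 (13.4% of all genes), and CAAGTG in 2 of 18 and 1 of 13 (15.4%). Of the genes called lower, only Id4 had a window, which held GGCGCC and neither of the other motifs. The GC content of the windows ran from 37.3% (Tgif1) to 85.3% (Ski), and the shares over all genes were not matched for it. Whether the shares differ was not tested. The windows below are those of 3 Id genes that moved in different directions, of Ltbp1 and of Tgif1. Capitals mark the matches, and each line runs 5′ to 3′ on the gene's strand.
Id2 chr12:25096043-25096342 (- strand): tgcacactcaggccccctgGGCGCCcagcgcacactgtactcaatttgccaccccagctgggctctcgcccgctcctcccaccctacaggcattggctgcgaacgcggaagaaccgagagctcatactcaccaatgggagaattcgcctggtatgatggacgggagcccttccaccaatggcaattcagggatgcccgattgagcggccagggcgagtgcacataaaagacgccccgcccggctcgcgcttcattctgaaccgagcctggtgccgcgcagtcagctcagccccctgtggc
Id3 chr4:136143572-136143871 (+ strand): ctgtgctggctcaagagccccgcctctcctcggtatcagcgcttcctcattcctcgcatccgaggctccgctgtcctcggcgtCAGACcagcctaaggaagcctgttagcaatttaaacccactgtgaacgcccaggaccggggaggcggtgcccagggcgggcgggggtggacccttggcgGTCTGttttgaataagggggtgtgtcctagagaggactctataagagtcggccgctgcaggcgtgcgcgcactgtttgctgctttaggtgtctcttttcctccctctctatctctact
Id4 chr13:48260866-48261165 (+ strand): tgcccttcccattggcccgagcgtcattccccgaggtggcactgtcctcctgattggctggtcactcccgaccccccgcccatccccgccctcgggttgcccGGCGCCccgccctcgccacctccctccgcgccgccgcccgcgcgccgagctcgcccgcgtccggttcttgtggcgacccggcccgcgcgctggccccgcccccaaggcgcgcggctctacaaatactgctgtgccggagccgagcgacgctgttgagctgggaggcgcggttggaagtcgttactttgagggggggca
Ltbp1 chr17:75005279-75005578 (+ strand): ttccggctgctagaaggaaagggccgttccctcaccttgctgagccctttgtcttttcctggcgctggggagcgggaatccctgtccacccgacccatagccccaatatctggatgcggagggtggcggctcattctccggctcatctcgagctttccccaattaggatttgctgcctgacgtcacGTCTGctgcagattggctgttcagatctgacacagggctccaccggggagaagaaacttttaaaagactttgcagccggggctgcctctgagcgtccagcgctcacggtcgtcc
Tgif1 chr17:70851685-70851984 (- strand): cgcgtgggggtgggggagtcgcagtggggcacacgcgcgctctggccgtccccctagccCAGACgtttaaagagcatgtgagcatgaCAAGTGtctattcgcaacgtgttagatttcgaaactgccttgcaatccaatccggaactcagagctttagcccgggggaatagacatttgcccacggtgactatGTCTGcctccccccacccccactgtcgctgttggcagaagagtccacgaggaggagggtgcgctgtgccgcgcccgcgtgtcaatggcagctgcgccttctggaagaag
In Id2, the GGCGCC match lay 231 bases before the start. Id3 had CAGAC at 167 and GTCTG at 68 bases before the start, and Id4, which fell, had GGCGCC at 148. The Ltbp1 window, 1 of 2, had GTCTG at 64, and the Tgif1 window, 1 of 5, had CAGAC at 191, CAAGTG at 163 and GTCTG at 59. The Ltbp1 window not printed had GTCTG at 148 and 97. The printed Tgif1 window held the most matches of the 5 and the only CAAGTG, and each of the others held CAGAC once or no match. Over all windows of the table, 49.6% held CAGAC, 11.9% GGCGCC and 13.6% CAAGTG. A match is a stretch of letters and not a measured binding site.

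Among the ligands, the activin subunit gene Inhba, 2 of 3 TGF-beta genes and 2 of 4 BMP genes were higher, while the third TGF-beta gene was lower. Inhba encodes the subunit that forms activin A and inhibin A. It was at 6.94, 6.68 and 6.85 in the control arrays and at 8.25, 8.05 and 8.23 in the Nkx2-1-shRNA arrays. The rise was 2.55-fold (log2 fold change 1.35, SE 0.10, adjusted p = 0.000383), with every Nkx2-1-shRNA array above every control array. Tgfb1, the isoform most often studied in fibrosis and cancer, was at 8.03, 7.73 and 7.96 and at 8.60, 8.41 and 8.64 in the same order. Its rise was 1.56-fold (0.65, SE 0.11, adjusted p = 0.00955). Tgfb2 was at 4.75, 4.76 and 5.14 and at 5.63, 5.33 and 5.60, with the third control array nearest to the Nkx2-1-shRNA arrays (0.64, SE 0.14, adjusted p = 0.0236). In contrast, Tgfb3, which shares its receptors with the other isoforms, was at 5.36, 5.43 and 5.33 in control and at 4.62, 4.61 and 4.63 in Nkx2-1-shRNA cells, which was 0.594 times the control level (-0.75, SE 0.073, adjusted p = 0.000955).

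Both BMP ligands called were higher. Bmp2 was under the background limit in all control arrays (3.60, 3.04 and 3.35) and above it in the Nkx2-1-shRNA arrays (4.86, 4.56 and 4.60), a measured log2 difference of 1.34 (SE 0.16, adjusted p = 0.00215). Against the limit itself, Bmp2 was at least 1.25-fold higher. Bmp4, a ligand of the distal lung bud tip, was well above background throughout. It was at 7.96, 8.20 and 7.96 in the control arrays and at 8.68, 8.75 and 8.58 in the Nkx2-1-shRNA arrays, a 1.55-fold rise (0.63, SE 0.099, adjusted p = 0.00671). Bmp6, Bmp7, Inhbb and Ltbp2 did not pass, with log2 differences of 0.15, -0.15, 0.02 and -0.05 (adjusted p = 0.302 to 0.899), of which Inhbb lay at the background limit.

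Of the 4 latent TGF-beta binding proteins, matrix proteins that tether latent TGF-beta, 3 were higher. Ltbp1 had the largest change of the ligand class. It was at 5.04, 4.90 and 4.69 in the control arrays (4.88 ± 0.18, SD, n = 3) and at 6.88, 6.66 and 6.65 in the Nkx2-1-shRNA arrays (6.73 ± 0.13), a 3.61-fold rise (1.85, SE 0.12, adjusted p = 0.000206). Ltbp3 was at 7.79, 7.84 and 7.74 against 8.66, 8.63 and 8.48 (0.80, SE 0.083, adjusted p = 0.00128), and Ltbp4 at 6.61, 6.69 and 6.80 against 7.42, 7.32 and 7.41 (0.69, SE 0.084, adjusted p = 0.00243). For each of these genes the groups did not overlap. Bmp1, a protease that processes procollagen and releases growth factors from latent complexes, was lower, at 8.79, 8.90 and 8.90 against 8.48, 8.50 and 8.49 (-0.37, SE 0.074, adjusted p = 0.0158). Leaving out 1 array ended the call of Tgfb2 without Nkx2-1-shRNA replicates 1 or 3 or control replicates 1 or 2 (adjusted p = 0.0728 to 0.0849) and of Bmp1 without any 1 of the Nkx2-1-shRNA arrays or control replicate 2 (0.0524 to 0.0663). The methods' t-test ended that of Tgfb2 (0.0953).

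**Figure D2:**
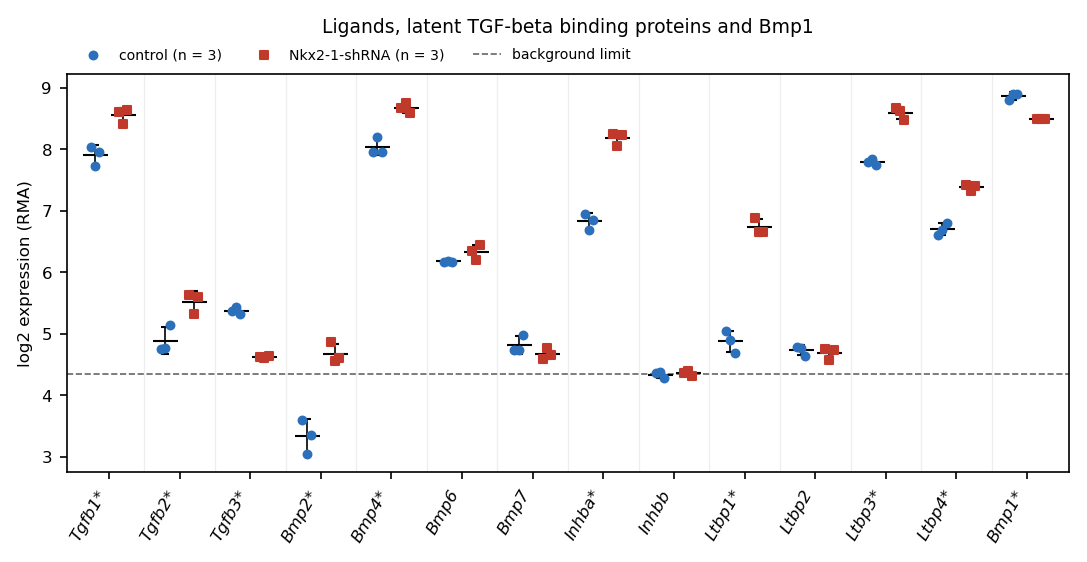
Log2 expression (vertical axis, RMA) of the 14 measured ligand, binding protein and protease genes in each control array (blue circles) and Nkx2-1-shRNA array (red squares). Black bars give mean and SD over 3 arrays, the dashed line is the background limit, and an asterisk stands for an adjusted p under 0.05. Control values of Bmp2 lie under the limit, and Tgfb3 and Bmp1 are the called genes whose red squares lie below the blue circles.

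The receptor genes that rose were mostly of type I, the kinases that phosphorylate Smads. Of 5 type I genes, 4 were higher and the fifth, Bmpr1b, was under the background limit in both groups (2.27 and 2.35). Acvr1, which binds BMPs and activins, was at 7.20, 7.07 and 6.91 in the control arrays and at 7.66, 7.58 and 7.64 in the Nkx2-1-shRNA arrays (0.57, SE 0.095, adjusted p = 0.00867). Acvr1b, the activin type I receptor, was at 7.40, 7.39 and 7.51 and at 8.01, 7.88 and 7.87 (0.49, SE 0.082, adjusted p = 0.0088). Bmpr1a, a BMP receptor, was at 8.98, 8.91 and 8.97 and at 9.41, 9.37 and 9.52 (0.48, SE 0.079, adjusted p = 0.00793). The 3 genes were 1.39- to 1.48-fold higher, with no overlap between groups. Tgfbr1, the TGF-beta type I receptor, was at 8.37, 8.21 and 8.12 and at 8.69, 8.66 and 8.75, a 1.38-fold rise (0.47, SE 0.091, adjusted p = 0.0152).

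Of 4 type II receptor genes, which bind ligand and activate the type I kinase, 1 was higher. Tgfbr2 was at 7.17, 6.99 and 6.97 in the control arrays and at 7.71, 7.52 and 7.75 in the Nkx2-1-shRNA arrays, a 1.54-fold rise (0.62, SE 0.10, adjusted p = 0.00723). Bmpr2, which serves the BMPs, was at 9.77, 9.46 and 9.59 and at 9.69, 9.41 and 9.70, and its arrays overlapped (-0.01, 95% interval -0.30 to 0.28, adjusted p = 0.973). Acvr2a and Acvr2b differed by 0.02 each (intervals -0.32 to 0.36 and -0.18 to 0.22). Neither co-receptor passed by limma or by the methods' t-test, although the Tgfbr3 arrays did not overlap (-0.28, interval -0.53 to -0.03, adjusted p = 0.131, unadjusted p = 0.0345), and Eng, near the background limit, differed by 0.01 (-0.22 to 0.24). Leaving out Nkx2-1-shRNA replicate 1 or 3 ended the call of Tgfbr1 (adjusted p = 0.0574 and 0.0569).

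Of the Smads, Smad3, Smad4 and Smad6 rose. Smad3, which binds CAGAC directly and carries the TGF-beta and activin signal, was at 7.29, 7.30 and 7.44 in the control arrays and at 8.07, 8.08 and 8.00 in the Nkx2-1-shRNA arrays, a 1.63-fold rise (0.71, SE 0.080, adjusted p = 0.00181). Its partner Smad2 was at 8.49, 8.50 and 8.46 and at 8.69, 8.69 and 8.78, without overlap, and did not pass (0.24, 95% interval 0.07 to 0.41, adjusted p = 0.0702). It passed in 5 of 16 alternative fits (adjusted p = 0.0234 to 0.2 over all of them), among them the methods' t-test and median centring. Smad4, the common partner, was at 9.39, 9.24 and 9.43 and at 9.71, 9.69 and 9.75, a 1.28-fold rise (0.36, SE 0.082, adjusted p = 0.0262). The 3 BMP-activated Smads did not pass by limma or by the methods' t-test after adjustment, with 1 lower by each at an unadjusted p under 0.05. Their log2 differences were 0.06 for Smad1 (interval -0.14 to 0.27), -0.21 for Smad5 (-0.40 to -0.02) and 0.22 for Smad9 (-0.06 to 0.51). Of the inhibitory Smads, which block receptor signaling, Smad6 was at 6.09, 6.06 and 5.88 and at 6.44, 6.64 and 6.50 (0.52, SE 0.095, adjusted p = 0.0124). Smad7 was at 7.95, 7.94 and 8.06 and at 8.16, 7.88 and 8.04, so that the second Nkx2-1-shRNA array lay below every control array (0.04, interval -0.19 to 0.28, adjusted p = 0.823). The call of Smad4 ended without control replicate 1 or 2 or any 1 of the Nkx2-1-shRNA arrays (adjusted p = 0.0571 to 0.0882).

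Receptors and Smads can also be grouped by the signal they carry, a grouping made after their values were seen. Of 7 TGF-beta and activin genes (Tgfbr1, Tgfbr2, Acvr1b, Acvr2a, Acvr2b, Smad2 and Smad3), 4 were higher (median log2 fold change 0.467). Of 7 BMP genes (Bmpr1a, Bmpr1b, Acvr1, Bmpr2, Smad1, Smad5 and Smad9), 2 were higher (0.071). Each gene was placed in 1 group only, also Acvr1, which binds BMPs and activins. The median of 0.071 was the value of Bmpr1b, which lay under the background limit in both groups of arrays. Whether the 2 groups of genes differ was not tested.

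**Figure D3:**
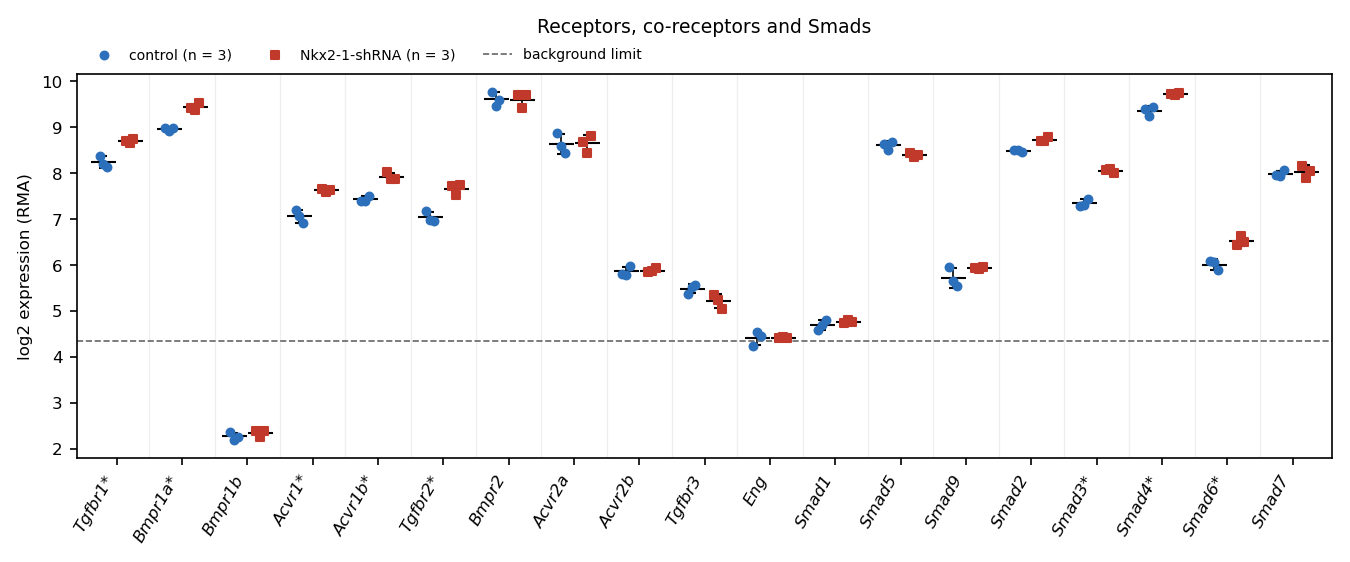
Log2 expression (vertical axis, RMA) of the 11 receptor and co-receptor genes and the 8 Smads in each control array (blue circles) and Nkx2-1-shRNA array (red squares). Black bars give mean and SD over 3 arrays, the dashed line is the background limit, and an asterisk stands for an adjusted p under 0.05. Blue and red points of Bmpr2 and Smad7 overlap, and those of Smad3 and Tgfbr2 do not.

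The inhibitor class held the largest change among the 46 genes. Pmepa1 is a membrane protein that TGF-beta induces and that keeps Smad2 and Smad3 from being activated. It was at 8.77, 8.84 and 8.96 in the control arrays (8.86 ± 0.097, SD, n = 3) and at 10.88, 10.90 and 10.95 in the Nkx2-1-shRNA arrays (10.91 ± 0.036). The 4.16-fold rise (2.06, SE 0.082, 95% interval 1.86 to 2.25, adjusted p = 6.22e-05) was many times the spread within either group. Among the nuclear co-repressors that bind Smads, Tgif1 and Skil were higher and Ski did not pass (-0.20, -0.39 to -0.01, adjusted p = 0.143). Tgif1 was at 8.39, 8.34 and 8.31 and at 9.33, 9.45 and 9.30, a 2.02-fold rise (1.02, SE 0.079, adjusted p = 0.000422). Skil, itself a TGF-beta target, was at 8.19, 8.11 and 8.16 and at 9.01, 8.92 and 8.94, a 1.74-fold rise (0.80, SE 0.074, adjusted p = 0.00081). All 3 of these called genes kept their call in every alternative fit.

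The other inhibitors changed less. Smurf2, a ubiquitin ligase that marks Smads and receptors for degradation, was at 8.62, 8.62 and 8.48 in the control arrays and at 9.03, 8.98 and 8.99 in the Nkx2-1-shRNA arrays (0.43, SE 0.078, adjusted p = 0.0119), and its other transcript cluster was also higher (0.37, adjusted p = 0.0386). Smurf1 differed by -0.04 (-0.22 to 0.14, adjusted p = 0.78). Bambi, a decoy receptor that lacks the kinase domain, was the inhibitor that fell, at 6.99, 7.00 and 6.96 against 6.62, 6.73 and 6.46 (-0.38, SE 0.091, adjusted p = 0.0316). The secreted antagonists Nog and Fst passed neither limma, adjusted or not, nor the methods' t-test. Nog, which captures BMPs, was at 5.06, 4.76 and 4.98 and at 5.40, 5.02 and 5.15, with overlapping groups (0.26, -0.04 to 0.57, adjusted p = 0.236), and Fst, which captures activin, differed by 0.10 (adjusted p = 0.498). Leaving out Nkx2-1-shRNA replicate 1 or 3 or any 1 of the control arrays ended the call of Bambi (adjusted p = 0.0639 to 0.095), as did median centring (0.089) and the methods' t-test (0.0614). Smurf2 lost its call without Nkx2-1-shRNA replicate 1 (0.0553).

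The 4 Id genes encode helix-loop-helix proteins without a DNA-binding domain that block differentiation factors and are classic BMP targets. The Id2 arrays were at 8.53, 8.77 and 8.68 in control and at 9.66, 9.79 and 9.83 in Nkx2-1-shRNA cells, a 2.15-fold rise (95% interval 0.88 to 1.33 on the log2 scale, adjusted p = 0.000617). Id3 was at 5.96, 6.32 and 5.82 and at 6.95, 7.40 and 6.95, a 2.09-fold rise with the widest spread of the class (1.07, SE 0.18, adjusted p = 0.00822). In both groups the second array was the highest for Id3 and for Id1, and in control also for Id2. Id1 was at 8.49, 8.74 and 8.52 and at 9.02, 9.15 and 8.92, a smaller rise of 1.36-fold (0.45, SE 0.10, adjusted p = 0.0285). Id4 fell, from 7.19, 7.11 and 6.97 to 6.74, 6.71 and 6.78, which was 0.784 times the control level (-0.35, SE 0.086, adjusted p = 0.0348). Leaving out 1 array ended the call of Id1 without Nkx2-1-shRNA replicates 1 or 2 or control replicates 1 or 3 (adjusted p = 0.0776 to 0.0906) and of Id4 without any 1 Nkx2-1-shRNA array or control replicate 1 or 2 (0.0821 to 0.111). Median centring also ended that of Id4 (0.0868), and the methods' t-test ended those of Id1, Id3 and Id4 (0.0565 to 0.0776).

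**Figure D4:**
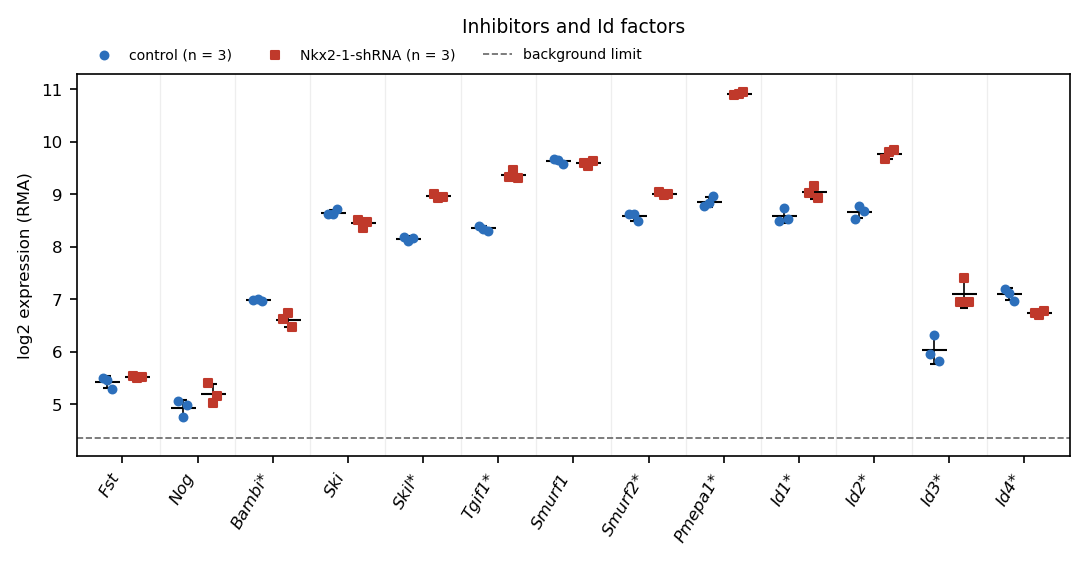
Log2 expression (vertical axis, RMA) of the 9 inhibitor and 4 Id genes in each control array (blue circles) and Nkx2-1-shRNA array (red squares). Black bars give mean and SD over 3 arrays, the dashed line is the background limit, and an asterisk stands for an adjusted p under 0.05. Red squares of Pmepa1 lie at 10.88 to 10.95, above its blue circles at 8.77 to 8.96, whereas those of Bambi and Id4 lie below theirs.

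The other genes of the pathway were read from 7 lists, which held 91 measured genes that are not among the 46. Of these, 19 were higher (20.9%) and 4 lower (4.4%), with a median log2 fold change of 0.067. The 91 were not filtered on background, and 68 of them exceeded it in at least 1 group. Among all 19938 genes with 1 symbol, likewise unfiltered, 10.7% were higher and 9.88% lower. Among the genes above background, 15.3% were higher and 13.9% lower. The lists were chosen with earlier results of these data known, so their counts are a description and not an independent check. Genes known to be induced by TGF-beta gave the most calls, 9 higher and 0 lower of 16 by limma (12 and 0 at an unadjusted p under 0.05, 7 and 0 by the methods' t-test after adjustment). Thbs1 and Itgb6 count among these and again among the genes of latent TGF-beta activation. Tgfbi, a matrix protein named for its induction, rose from a mean of 5.84 to 9.10 (3.26, adjusted p = 2.8e-05). Thbs1, which is also an activator of latent TGF-beta, rose from 6.12 to 9.03 (2.91, adjusted p = 4.2e-05). Tgm2, a crosslinking enzyme of the matrix (1.94, adjusted p = 9.9e-05), and Timp1, a metalloprotease inhibitor (1.22, adjusted p = 0.00259), were next in size. Ccn2, Ccn1, Col1a1 and Tagln, classic members of the same list, did not pass (0.38, 0.34, 0.09 and -0.15). Of the genes called in this list, Snai1 and Junb, named after their values were seen, lost their calls when 1 array was left out. The call of Snai1 ended whichever array was left out (adjusted p = 0.0635 to 0.129). That of Junb ended without Nkx2-1-shRNA replicate 1 or 2 or control replicate 1 or 3 (0.0568 to 0.0667), and by the methods' t-test (0.0844).

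Of 9 genes of latent TGF-beta activation, 5 were higher and 1 lower. Besides Thbs1, the protease genes Furin (1.16, adjusted p = 0.000287) and Mmp14 (0.86, adjusted p = 0.00259) rose, as did Itgb6 (0.60, adjusted p = 0.0118), the beta subunit of an epithelial integrin that activates TGF-beta, which was at least 1.31-fold higher against the background limit, since its 3 control arrays lay under it. The gene called lower, named after its values were seen, was Itgav, the alpha subunit that pairs with Itgb6 (-0.43, adjusted p = 0.0198), and its call ended without any 1 Nkx2-1-shRNA array or control replicate 1 or 2 (0.0502 to 0.0742). Of 11 BMP-induced genes, 2 were higher and 1 lower, a share near that of all genes above background, Smad6, already given, the homeobox gene Msx1 (0.50, adjusted p = 0.0128) and the Notch and BMP target Hey1 (-0.57, adjusted p = 0.0254). The call of Hey1 ended without Nkx2-1-shRNA replicate 1 or 2 or control replicate 1 or 2 (adjusted p = 0.0729 to 0.0904). Of 14 intracellular regulators, 4 were higher, the kinase gene Hipk2 (0.95, adjusted p = 0.00193), Zfyve9, which presents Smad2 and Smad3 to the receptor (0.82, adjusted p = 0.00155), the phosphatase gene Ctdsp2 (0.49, adjusted p = 0.0067) and Strap (0.40, adjusted p = 0.0119). Among 14 secreted antagonists, Nbl1, which captures BMPs, rose from 5.23 to 6.99 (1.76, adjusted p = 0.000231). Of 8 further receptors and co-receptors, the co-receptor gene Cd109 was lower (-1.36, adjusted p = 0.0011). Of 22 further ligands, Gdf11 was lower (-0.89, adjusted p = 0.00129), and Inhbe was called (0.43, adjusted p = 0.0206) with both means under the background limit, a call that ended without control replicate 2 or 3 or any 1 Nkx2-1-shRNA array (0.0558 to 0.0719).

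**Figure D5:**
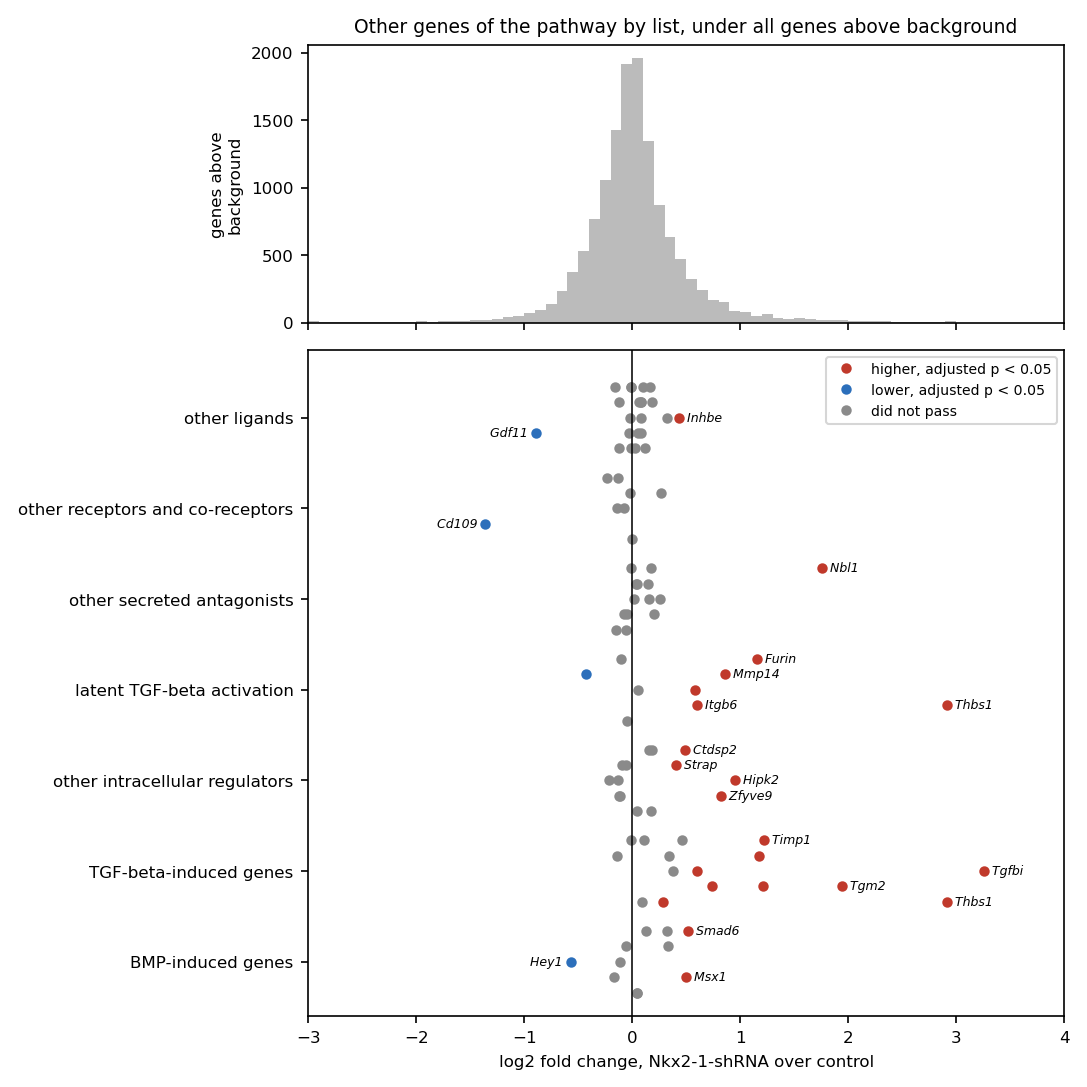
Top, number of genes above background by log2 fold change, Nkx2-1-shRNA over control (values below -3 or above 3 are counted in the end bins). Bottom, each measured gene of the 7 lists on the same horizontal axis, coloured by its call, with up to 4 called genes a list named; Thbs1 and Itgb6 are in 2 lists, and Tgfbi lies farthest to the right at 3.26.

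To see whether called genes lay among neighbours that moved alike, the median log2 fold change of up to 10 nearest genes above background on each side was taken (20 in all, and 12 for Bambi) for each of the 27 called genes in the gene order of GRCm38.p6. Over 13529 genes this median had a 5th to 95th percentile range of -0.223 to 0.2. For 24 of the 27 genes it lay inside that range. It was -0.267 around Tgfb3 on chromosome 12, which fell, -0.256 around Acvr1 on chromosome 2, which rose, and 0.214 around Smad4 on chromosome 18, which rose. Smad3 and Smad6 neighbour each other on chromosome 9, where the median was 0.0771.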

How the data were processed

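RNA of 3 Nkx2-1-shRNA and 3 control samples was hybridised by the authors to Affymetrix Mouse Gene 1.0 ST arrays, 1 array per sample. Per the labels, the values were made with Affymetrix Expression Console 1.1 and RMA, which corrects background, quantile-normalizes the arrays and summarizes the probes of each transcript cluster, and what was deposited is in log2 units. Quantile normalization assumes arrays of like distribution, so a shift of most genes would be removed. No values were normalized again. Genes were named through the platform annotation. Of 23410 annotated transcript clusters, 21789 had 1 symbol, and those with several (1621) named no gene. A gene with several transcript clusters was given by the one with the highest mean. R 4.3.3 and limma 3.58.1 (lmFit, eBayes) were run on all 35557 transcript clusters (4 residual and 2.86 prior degrees of freedom), two-sided, with Benjamini-Hochberg adjustment over all of them and a call at an adjusted p under 0.05; the procedure was tested on simulated data. The background limit was the 95th percentile of 1248 transcript clusters of sensory receptor genes. The precision is limited by 3 arrays a group. Within a group, arrays correlated at 0.9908 to 0.9936 over transcript clusters. The pathway genes, lists, markers and tests were chosen with earlier results of these data known. Every called pathway gene was named, as were 12 set in the naming rule whether called or not, up to 4 called genes of each other list, and Nkx2-1. Alternatives were the methods' t-test, Welch's test, other priors and weights, other scalings and filters, the replicate block and leaving out each array. Gdf15 and some genes of the other lists and markers were not analysed here.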

Additional observations from a re-analysis of the deposited data

How the results depend on the processing

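Of the 23 genes called higher and 4 called lower, 11 kept their call in all 16 alternative fits (Tgfb3, Inhba, Ltbp1, Ltbp3, Ltbp4, Acvr1b, Smad3, Skil, Tgif1, Pmepa1 and Id2) and 16 lost it in at least 1, with adjusted p up to 0.184. Welch's test called 10 higher and 1 lower and ended the calls of those 16 genes (adjusted p = 0.0511 to 0.184), and the methods' t-test gave 21 and 2. At the study's threshold limma called 4 higher and 0 lower, and the methods' t-test 0 and 0. Median centring, which moved the median of all transcript clusters by 0.0804, called 24 higher and 2 lower, with the direction of every called gene kept. Leaving out 1 array gave 18 to 22 higher and 1 to 3 lower. Deviations of same-numbered arrays from their group means correlated at 0.0575, 0.136 and -0.0342. These values cannot decide whether the numbers pair, since arrays of different numbers were not compared. The main fit did not take the numbers as pairs. With the replicate block, 22 were higher and 2 lower, and Smad4, Bambi and Id4 lost their calls. Among the genes that did not pass, Bmpr2 changed sign with array weights (0.026) and median centring (0.0708) and ranged from -0.0821 to 0.087 with 1 array left out, and Smad7 from -0.0229 to 0.1179. Of the other pathway genes, Welch's test called 12 higher and 1 lower, median centring 21 and 4, the replicate block 18 and 2, the study's threshold 5 and 0, and leaving out 1 array 16 to 18 and 2 to 4. In all, 45 genes exceeded background with the 90th percentile as the limit too (log2 3.97). The causes were not tested. Where a group lay at or under the background limit (Bmp2, Itgb6 and Inhbb in control, Sftpc and Tek in Nkx2-1-shRNA cells, Bmpr1b and Inhbe in both), its level was not measured above background.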
